A study of Caenorhabditis elegans with 31 samples.

Results

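The genes described here are the 7 fatty acid desaturase genes fat-1 to fat-7 and the acyl-CoA synthetase gene acs-2 of *Caenorhabditis elegans*. They were chosen by gene name, and all 8 were found among the 46904 genes of the deposited count matrices, of which 24403 had at least 1 count. The matrices hold the RNA of single nuclei from whole worms on day 2 of adulthood, with each captured molecule counted once by its unique molecular identifier (UMI). All worms were of strain JK560, fog-1(q253), a strain taken for its spermatogenesis defect, kept at 20 °C and moved to 25 °C from the L1 larval stage. The study asked how ethanol given to an earlier generation is seen in later ones.

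There were 31 libraries in 5 batches, named as batches by the labels. From generation P0, untreated, came 5 libraries: 1 of sorted nuclei (batch 1) and 4 of unsorted nuclei (1 in batch 1, 3 in batch 3). F1 worms gave 5 water libraries and 5 for 0.05% ethanol, both split as 2 from batch 2 with 3 from batch 5, while the 3 for 0.5% ethanol were all of batch 5. F3 worms gave 5 water libraries and 5 for 0.05% ethanol, both split as 2 from batch 2 with 3 from batch 4, while the 3 for 0.5% ethanol were all of batch 4. No batch held both P0 and water libraries, so P0 was not compared with them, and for 0.5% ethanol the generation and the batch cannot be told apart. The labels do not say how many worms were pooled in a library, nor whether libraries came from separate cultures. The p-values below therefore measure the spread between these libraries, which may be technical.

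Worms make their own polyunsaturated fatty acids, a chain of steps in which each desaturase puts a double bond at a set place of the carbon chain. FAT-5, FAT-6 and FAT-7 are desaturases of the stearoyl-CoA desaturase family that make monounsaturated fatty acids, FAT-5 mainly from palmitate and FAT-6 and FAT-7 mainly from stearate. FAT-2 turns oleic into linoleic acid, FAT-1 is an omega-3 desaturase, and FAT-3 and FAT-4 act later in the chain, FAT-4 in the last steps to arachidonic and eicosapentaenoic acid. ACS-2 activates fatty acids for oxidation in mitochondria, and its gene is known for its rise in fasting through the nuclear receptor NHR-49, which also promotes fat-5 and fat-7. The intestine is the main tissue of fat storage and of fatty acid synthesis in the worm, and it also makes the vitellogenins, the yolk proteins that carry lipid to the oocytes.

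Libraries held 1116 to 4850 nuclei and 1218248 to 25500166 UMIs, with a median of 606 to 2149.5 UMIs per nucleus. The 3 shallowest, replicate 2 of each batch 5 group, held at most 1439256 UMIs and had 10.9% to 14.7% of them in ribosomal RNA genes, against 0.193% to 5.30% elsewhere. Of the 465 library pairs, the median pair shared 2 cell barcodes and the highest 233, which was 14.6% of the smaller library. For the main results, values with those nuclei or libraries left out are given where they differ. Over all libraries, 111982 UMIs came from fat-1 (WBGene00001393), 197546 from fat-2 (WBGene00001394), 46284 from fat-3 (WBGene00001395) and 63963 from fat-4 (WBGene00001396). A further 56904 came from fat-5 (WBGene00001397), 149433 from fat-6 (WBGene00001398), 1886 from fat-7 (WBGene00001399) and 34729 from acs-2 (WBGene00009221). UMIs are not scaled to gene length, so levels are compared within a gene and not between genes. The sequences of fat-6 and fat-7 are close to each other, so the split of reads between them is uncertain.

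Likely doublets (2168 nuclei) were removed, and the other 83012 nuclei were clustered into 29 clusters, with the 8 genes and the lipid gene lists used below kept out of the clustering. Marker genes named 11 classes, and 33.9% of nuclei stayed unnamed. The intestine-like class held 8836 nuclei and the body wall muscle-like class 7202. Class levels are in CPM (UMIs of a gene per 1000000 UMIs) over the nuclei of a class summed in each library with at least 20 of them. For each gene the classes were ranked by their median over libraries, and each class was compared with the next in rank by a two-sided paired sign-flip permutation test over libraries on log2(CPM + 1). Of 80 such pairs of neighbours, 19 had a Benjamini-Hochberg adjusted p below 0.05.

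All 7 desaturase genes had their highest median in intestine-like nuclei. The stearoyl-CoA desaturase gene fat-6 had a median of 1195 CPM there (lowest 805.1, highest 2707, n = 31). In the class next in rank, furrow collagen epidermis-like nuclei, it had 492.7 CPM (308 to 788, n = 22). The ranges of both classes did not overlap, the intestine-like value was higher in 22 of 22 libraries, and the ratio of the medians was 2.43. For fat-5 the intestine-like median was 565 CPM (336 to 1137), and pharyngeal gland-like nuclei came next with 202 CPM (97.5 to 391, n = 26). Here the ranges overlapped, but each of the 26 libraries with both classes had more fat-5 in the intestine-like class. The adjusted p was 0.000133 for both genes, with a raw p at 1e-05, the smallest that 100000 resamples can give.

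The genes of the later steps had the same leading class. Intestine-like nuclei held 2052 CPM of fat-2 (931 to 4042), which makes linoleic acid, against 796 CPM (375 to 1349) in pharyngeal gland-like nuclei, with the intestine-like value higher in 26 of 26 libraries. The omega-3 desaturase gene fat-1 stood at 754 CPM (397 to 1923) against 429 CPM (226 to 819) in body wall muscle-like nuclei, higher in 31 of 31 libraries. For fat-3, which acts on linoleic and alpha-linolenic acid, the values were 406 CPM (243 to 619) and 180 CPM (73.8 to 347) in pharyngeal gland-like nuclei, with 25 of 26 libraries in this direction. The levels of fat-4 were 488 CPM (257 to 745) and 258 CPM (157 to 363) in the same classes, with 26 of 26. The adjusted p was 0.000133 in each of these 4 tests as well. For fat-1 to fat-5 the class next in rank was not the same in all settings. Clustered at resolution 0.6, it was body wall muscle-like for fat-2, fat-3 and fat-4 and pharyngeal muscle-like for fat-5. With doublets kept, it was pharyngeal muscle-like for fat-1 to fat-4 and uterus-like for fat-5. With barcodes shared within a batch left out, it was pharyngeal muscle-like for fat-1, fat-4 and fat-5 and epidermis-like for fat-2. For fat-3 it was then still pharyngeal gland-like. Counting all classes, the intestine-like value was the higher of a pair in 259 of 260 pairs of class and library for fat-1, 260 for fat-2, 258 for fat-3, 259 for fat-4, 260 for fat-5 and 260 for fat-6.

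The other stearoyl-CoA desaturase gene, fat-7, was scarce everywhere. Its median was 13.2 CPM in intestine-like nuclei (0 to 49.1, n = 31) and 8.75 CPM in furrow collagen epidermis-like nuclei (0 to 43.2, n = 22), with ranges that overlapped. The intestine-like value was higher in 15 of 22 libraries (adjusted p = 0.0260, permutation test). This order rested on few molecules, 382 UMIs in intestine-like nuclei over all libraries and 216 in epidermis-like ones. With a pseudocount of 10 CPM the adjusted p was 0.0770, and with at least 50 nuclei per library and class it was 0.114. With barcodes shared within a batch left out, the medians were 10.5 CPM in epidermis-like and 10.3 CPM in intestine-like nuclei. In the libraries with both classes the epidermis-like value was then the higher in 6 of 20, and the mean log2 difference, epidermis-like minus intestine-like, was -0.83 (adjusted p = 0.145, permutation test).

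The gene acs-2 had a different order. Body wall muscle-like nuclei led with a median of 321 CPM (78.4 to 534, n = 31), ahead of furrow collagen epidermis-like nuclei with 250 CPM (85.9 to 519, n = 22), with 16 of 22 libraries in this direction (adjusted p = 0.0260, permutation test). Epidermis-like nuclei in turn stood above pharyngeal gland-like ones, at 151 CPM (adjusted p = 0.00169). Pharyngeal muscle-like nuclei (147 CPM) did not differ beyond the spread from the pharyngeal gland-like class above them or the uterus-like class (143 CPM) below them. Intestine-like nuclei followed at 103 CPM (22.3 to 283), below the uterus-like class in 25 of 31 libraries (adjusted p = 0.0002). Coelomocyte-like nuclei had 84.1 CPM and germline-like nuclei (mitotic to pachytene) 50.6 CPM, and the lowest medians were those of oocyte-like (36.0 CPM), spermatheca-like (33.0 CPM) and gonadal sheath-like nuclei (27.5 CPM). The lead of muscle over epidermis was not seen in all forms of the test. Clustered at resolution 0.6, the epidermis-like median was 258 and the muscle-like median 253 CPM (adjusted p = 0.959), and without shared barcodes the adjusted p of the difference was 0.310.

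**Figure D1:**
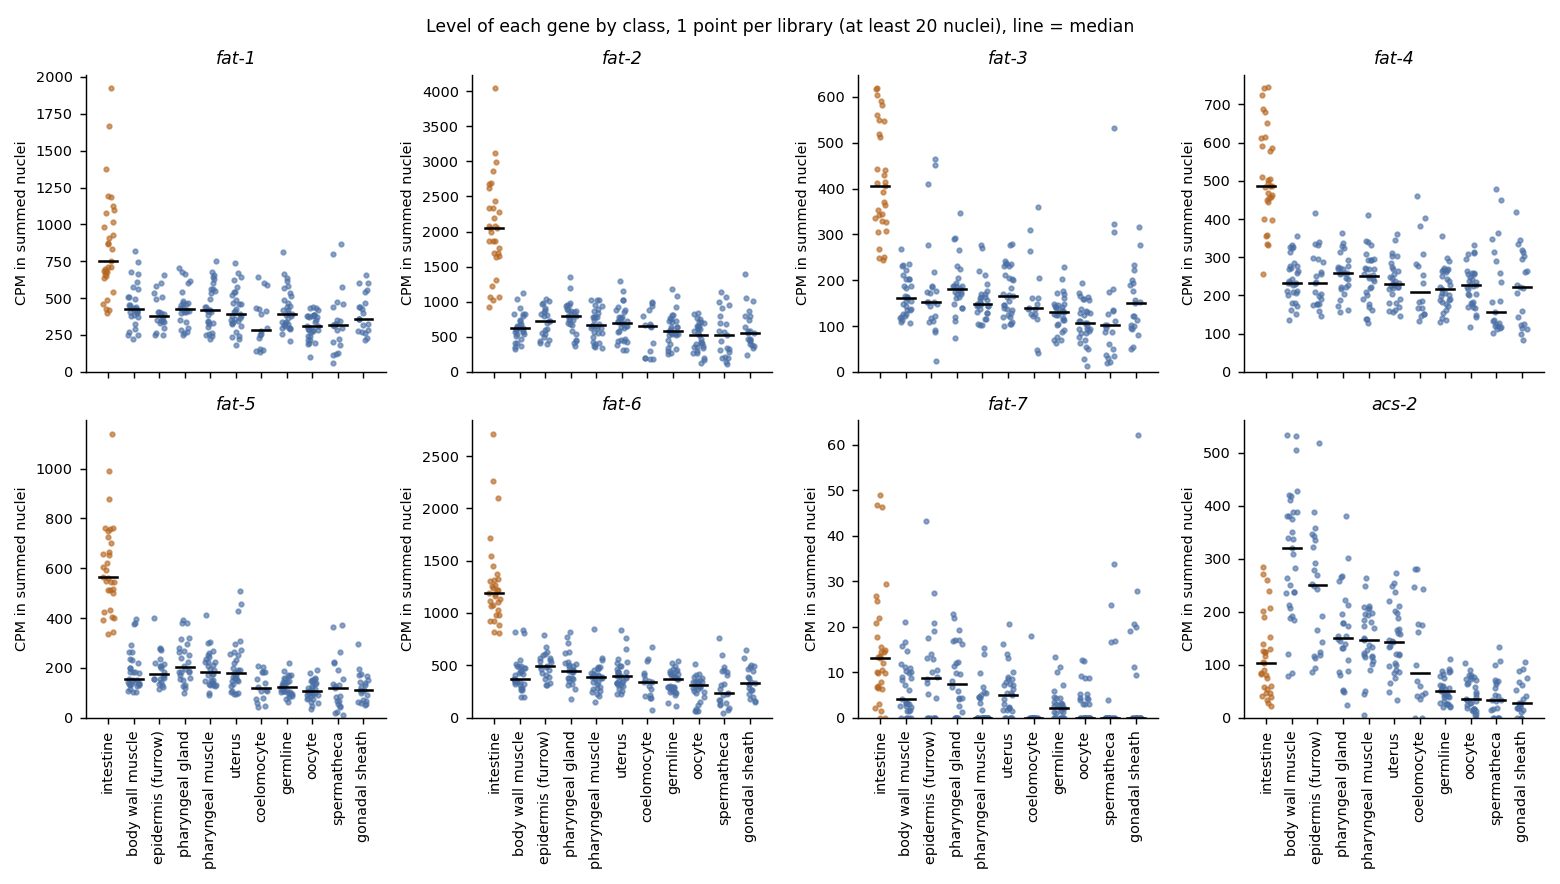
Level of each of the 8 genes in CPM (linear axes from 0, a panel per gene) in the 11 named classes; each point is 1 library with at least 20 nuclei of the class and the black line is the median. The intestine-like class (brown) has the highest median in the 7 desaturase panels, and body wall muscle-like nuclei have it in the acs-2 panel, at 321 CPM.

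Over the 10 classes outside the intestine, the medians ran from 286 to 429 CPM for fat-1, 521 to 796 CPM for fat-2, 102 to 180 CPM for fat-3 and 158 to 258 CPM for fat-4. They ran from 106 to 202 CPM for fat-5, 231 to 492.7 CPM for fat-6 and 0 to 8.75 CPM for fat-7. Only classes next to each other in rank were tested. Among neighbours outside the intestine, fat-2 was higher in epidermis-like than in uterus-like nuclei (727 against 702 CPM, adjusted p = 0.00707, permutation test). The gene fat-3 was higher in germline-like than in oocyte-like nuclei (131 against 107 CPM, adjusted p = 0.0127). For fat-5, epidermis-like nuclei stood above body wall muscle-like ones (175 against 155 CPM, adjusted p = 0.0260) and these above germline-like nuclei (121 CPM, adjusted p = 0.0002). The gene fat-6 was higher in pharyngeal gland- than in uterus-like nuclei (449 against 399 CPM, adjusted p = 0.0368), and in body wall muscle- than in germline-like nuclei (371 against 368 CPM, adjusted p = 0.0126, higher in 25 of 31 libraries). For fat-7, body wall muscle-like nuclei had 4.08 CPM and germline-like nuclei 2.23 CPM (adjusted p = 0.00368), and coelomocyte-like nuclei, with 3 UMIs in all, had a median of 0. No neighbours outside the intestine passed the test for fat-1 or fat-4.

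Vitellogenin RNA was found in nuclei of every class. At least 1 UMI of vit-2, a yolk gene of the intestine, was present in 93.9% to 99.9% of the nuclei of each class, and in 80.8% to 99.4% after each nucleus was thinned to 500 UMIs. The levels of the 8 genes were therefore also set against the vitellogenin UMIs of the same nuclei. Outside the intestine, the median ratio per 1000 vitellogenin UMIs was nearly level for fat-1 (12.9 to 16.7 over 10 classes), fat-2 (19.8 to 28.1) and fat-3 (4.31 to 6.13). In intestine-like nuclei it was lower, with 6.26 for fat-1, 15.8 for fat-2 and 3.45 for fat-3. The markers that named this class included vit-2, vit-5 and vit-6, so a lower ratio there can follow in part from the naming. The ratio of the highest to the lowest class outside the intestine was 1.29 for fat-1, 1.42 for fat-2 and 1.42 for fat-3. How much of the desaturase signal outside the intestine comes from RNA released by other cells was not tested.

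The other members varied more in this measure. For fat-4 the ratio ran from 6.68 in gonadal sheath-like to 11.02 in oocyte-like nuclei, with 4.12 in intestine-like ones. For fat-6 it ran from 11.7 in uterus-like to 19.9 in epidermis-like nuclei, with 10.2 in intestine-like ones, and epidermis-like nuclei exceeded the intestine-like value in 22 of 22 libraries. For fat-5 the range was 3.77 to 7.58, on both sides of the intestine-like 5.12. The widest range was that of acs-2, from 1.05 in gonadal sheath-like to 11.02 in body wall muscle-like nuclei, a 10.5-fold range, with 0.841 in intestine-like nuclei. In body wall muscle-like nuclei the acs-2 ratio was above the intestine-like one in 31 of 31 libraries, and in epidermis-like nuclei in 22 of 22. All comparisons with the intestine-like ratio share the limit that vitellogenin genes were among the markers of that class.

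**Figure D2:**
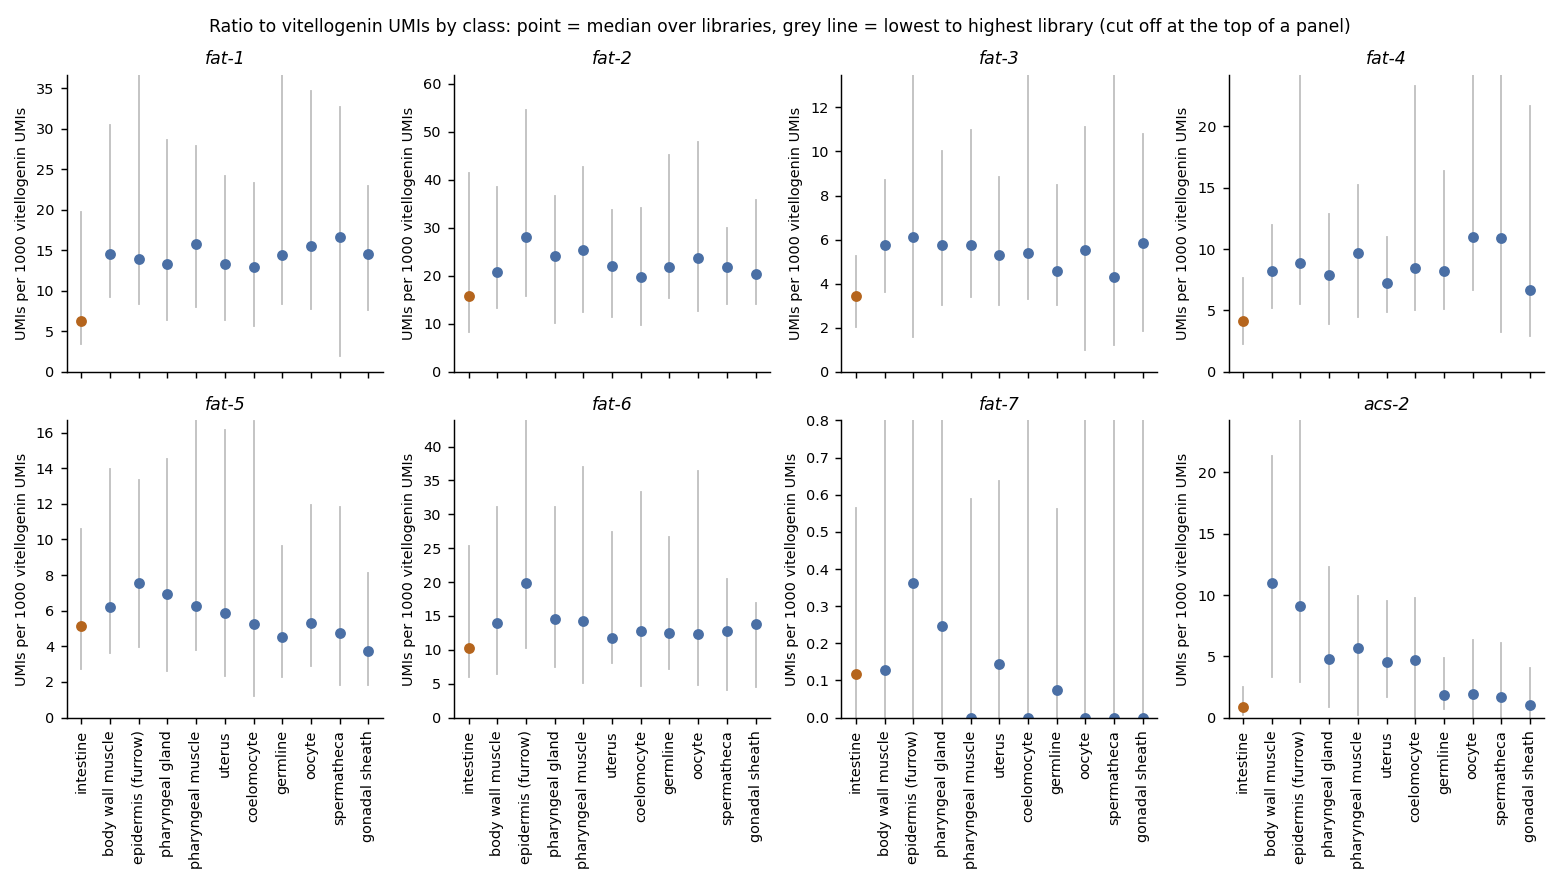
UMIs of each gene per 1000 UMIs of vit-1 to vit-6 in the same nuclei (linear axes from 0), by class; points are medians over libraries and grey lines run from the lowest to the highest library, cut off at the top of a panel. The acs-2 medians spread from 0.841 in intestine-like to 11.02 in body wall muscle-like nuclei, while the fat-1 medians outside the intestine stay between 12.9 and 16.7.

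For the genes other than fat-7, the share of nuclei with at least 1 UMI gave a like picture after thinning to 500 UMIs. Shallower nuclei were left out of the thinned shares. For fat-2 the thinned share was 55.7% in intestine-like nuclei and 25.4% in oocyte-like nuclei, a class that takes up its yolk from the intestine (81.6% and 40.3% before thinning, at median depths of 1450 and 773.5 UMIs). For fat-6 the thinned share was 39.3% in intestine-like and 19.5% in epidermis-like nuclei, and for fat-5 it was 20.9% and 8.64%. The acs-2 share was 14.3% in body wall muscle-like, 8.19% in epidermis-like, 5.17% in intestine-like and 1.82% in gonadal sheath-like nuclei (42.9%, 28.8%, 16.1% and 7.27% before thinning). The intestine-like class did not lead in the share of nuclei with fat-7. At this depth fat-7 was seen in at most 0.671% of the nuclei of any class, in pharyngeal gland-like nuclei, against 0.528% in intestine-like ones. Before thinning the fat-7 share was highest in epidermis-like nuclei, at 4.08% against 2.61% in intestine-like ones.

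Within the classes, some clusters stood apart. Cluster 18, with 1639 nuclei, was left unnamed, since its mean score over the intestine markers was 0.521, short of the 0.8 asked for a name. In it 4 intestine markers were raised (elt-2, elt-7, pept-1 and mtl-2). Its leading genes, among them clec-151 and let-383, held no intestine marker, and neither did those of the named intestine-like clusters 2 and 16. The fat-6 median of cluster 18 was 3105 CPM (1019 to 7117, n = 28), above the intestine-like value of the same library in 27 of 28 libraries. Clusters 2 and 16 form the intestine-like class, with vit-2, vit-5 and vit-6 among their raised markers. These genes did not count as raised in cluster 18. Per 1000 vitellogenin UMIs, fat-6 was at 57.2 in cluster 18, against 9.35 and 13.1 in clusters 2 and 16. The other members did not share this height: fat-2 had 1003 CPM in cluster 18, above the intestine-like value in 0 of 28 libraries, and fat-5 had 564 CPM, above it in 11 of 28. Of the intestine-like clusters, cluster 16 had more fat-5 than cluster 2, with medians of 724 and 527 CPM.

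In the oocyte-like class, cluster 24 (858 nuclei) had 27.6 fat-4 UMIs per 1000 vitellogenin UMIs and cluster 3 (5552 nuclei) had 9.87. The fat-4 level itself was lower in cluster 24, at 154 CPM against 240 CPM. The acs-2 level was 303 and 355 CPM in clusters 5 and 15 of the body wall muscle-like class, and 219 CPM in the unnamed cluster 9, which was led by nlp-20.

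**Figure D3:**
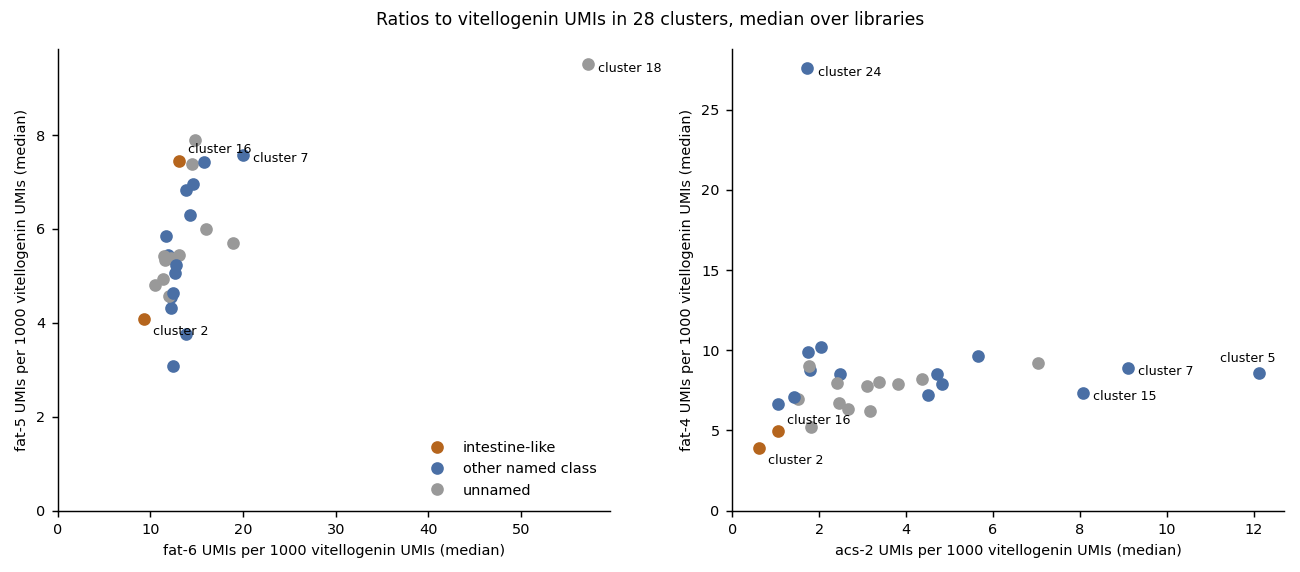
Median over libraries of UMIs per 1000 vitellogenin UMIs in 28 clusters, fat-6 against fat-5 (left) and acs-2 against fat-4 (right), on linear axes from 0; each point is 1 cluster. Cluster 18 lies far to the right in fat-6 at 57.2, cluster 24 lies high in fat-4 at 27.6, and clusters 5, 7 and 15 lie to the right in acs-2.

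The genes whose levels across the clusters were most like each member were taken by Pearson's r of log2(CPM + 1) over 28 clusters, among 11704 genes. The clusters share libraries and free RNA, so r is a description. For fat-1 the nearest gene was fat-2 (r = 0.93), followed by vit-3 and vit-2. For fat-2 it was vit-2 (r = 0.99), followed by vit-3 and vit-6, and for fat-4 it was fat-2 (r = 0.94), followed by vit-5 and spp-1. The nearest to fat-3 was W02D7.4 (r = 0.98), with vit-6 and F48D6.4 next. For fat-5 the list was faah-3 (r = 0.97), F32H5.1 and cyp-35A2, for fat-6 it was C23H5.8 (r = 0.97), acs-22 and Y105C5A.24, and for fat-7 it was F53A9.1 (r = 0.92), C15B12.1 and C25F9.10. None of the desaturases was among the nearest to acs-2, which had cysl-1 (r = 0.93), gta-1, an aminotransferase gene, and gpd-3, a glycolytic gene. Its r with the 7 desaturase genes ran from 0.40 (fat-4) to 0.65 (fat-7), while fat-1 to fat-6 had r of 0.75 to 0.95 with each other.

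Ethanol lines and water lines were compared in whole libraries, with counts summed over all nuclei and fitted with edgeR's quasi-likelihood test on 14505 genes, all 26 water and ethanol libraries in 1 fit. In summed nuclei, fewer nuclei of a type and less RNA per nucleus cannot be told apart. Ethanol lines did not differ from water lines by the test in any of the 8 genes, at either dose or in either generation, with the threshold at an adjusted p of 0.05. The background was the same: 0% of the 14505 genes were called in each of the 4 comparisons, with 0.841%, 0.965%, 1.89% and 4.53% of genes at an unadjusted p under 0.05 for 0.05% in F1, 0.05% in F3, 0.5% in F1 and 0.5% in F3. None of the 8 genes was among these. DESeq2 called none of the 8 either.

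In F1 the 0.05% effects of the 8 genes lay between -0.15 and 0.54 on the log2 scale. The fat-7 level was 6.37 and 7.20 CPM in the batch 2 water libraries and 6.02 and 9.82 CPM in those of 0.05% ethanol. In batch 5 it was 0.678, 1.74 and 1.87 CPM in water and 3.77, 1.28 and 1.82 CPM in 0.05% ethanol. The groups overlapped in both batches, and the fitted log2 difference was 0.54 (SE 0.339, adjusted p = 1 by edgeR), made up of 0.24 in batch 2 and 0.94 in batch 5. It was 0.27 without replicate 1 of 0.05% ethanol in batch 5 and 0.74 without replicate 1 of 0.05% ethanol in batch 2, the lowest and highest values when libraries were left out in turn. The 0.5% libraries had 1.58, 4.51 and 2.94 CPM, for a log2 difference of 0.71 from water (SE 0.468, adjusted p = 1 by edgeR), which ran from 0.37 without replicate 1 of water in batch 5 to 1.16 without replicate 1 of 0.5% ethanol. Without fat-7, the F1 effects lay between -0.15 and 0.12 for 0.05% and between -0.25 and 0.10 for 0.5% ethanol, with SEs up to 0.460.

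In F3 the lowest effect of 0.05% ethanol was that of acs-2. It had 65.1 and 177 CPM in water and 42.5 and 193 CPM in 0.05% ethanol of batch 2, and 210, 209 and 272 CPM in water and 100, 119 and 208 CPM in 0.05% ethanol of batch 4. In batch 4 each ethanol library was below each water library, and in batch 2 they overlapped. The fitted log2 difference was -0.42 (SE 0.371, adjusted p = 1.00 by edgeR), with -0.68 in batch 4 (SE 0.493) and -0.04 in batch 2 (SE 0.603). It ran from -0.91 without replicate 2 of 0.05% ethanol in batch 2 to -0.24 without replicate 1 of the same group and batch. The 0.5% F3 libraries of batch 4 had 165, 191 and 170 CPM of acs-2 (log2 difference from water -0.30, SE 0.447). For 0.5% ethanol in F3 the smallest p was that of fat-5, at 188, 197 and 254 CPM against 214, 237 and 283 CPM in water (log2 difference -0.24, SE 0.170, adjusted p = 0.957 by edgeR).

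The acs-2 values also split by replicate number in batch 2. Replicate 1 of the 4 groups there had 42.5 to 98.0 CPM and replicate 2 had 177 to 205 CPM, with no overlap between them. The same held in body wall muscle-like nuclei, where replicate 1 had 184, 192, 84.2 and 78.4 CPM (water F1, 0.05% F1, water F3, 0.05% F3) and replicate 2 had 309, 380, 338 and 250 CPM. The labels do not say what a replicate number marks. With the number as a block, the acs-2 difference of 0.05% ethanol from water in F3 was -0.52 and that between doses in F1 was -0.32, both with an adjusted p of 1 by edgeR. In batch 5 replicate 1 was the highest of each of the 3 groups, with 171 to 252 CPM against 76.8 to 142 CPM, and in batch 4 no replicate number was the lowest or the highest in every group.

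The doses were also compared with each other, and the generations with each other, as differences of effects. No gene was called (0% of 14505 each, with 187 and 627 genes at an unadjusted p under 0.05 between doses in F1 and F3, and 137 and 149 between generations for 0.05% and 0.5%). Among the members the smallest p between the doses was that of acs-2 in F1 (log2 difference -0.37, SE 0.460) and that of fat-6 in F3 (-0.29, SE 0.204, adjusted p = 0.956 by edgeR). Between the generations it belonged to fat-7, with an F3 effect lower than the F1 effect by -0.70 on the log2 scale for 0.05% (SE 0.439) and by -1.16 for 0.5% (SE 0.584), both with an adjusted p of 1.00 by edgeR. Comparisons within a generation share their water libraries.

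**Figure D4:**
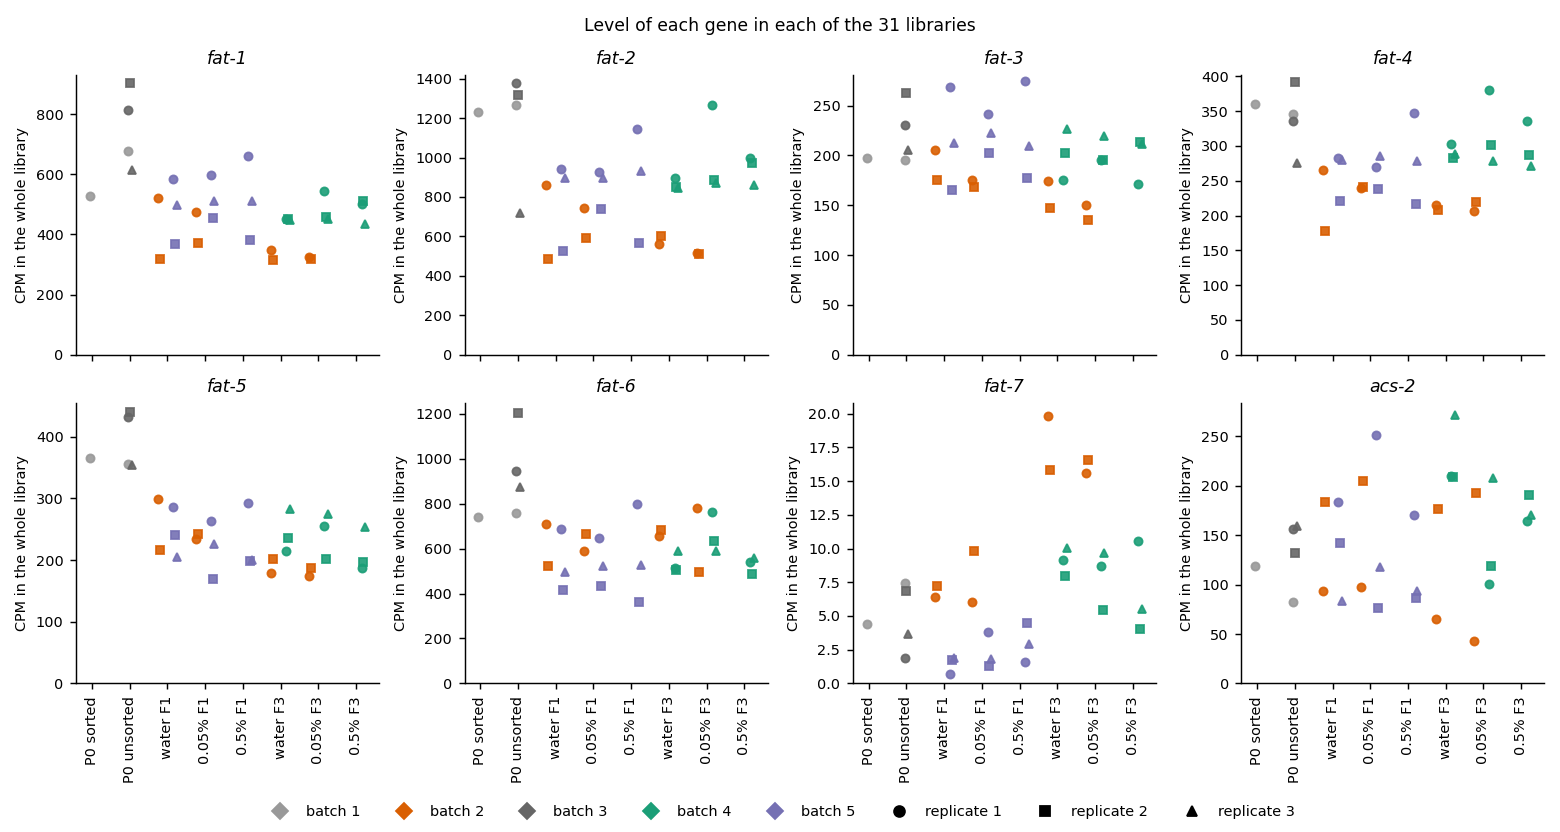
Level of each gene in CPM in the whole of each of the 31 libraries (linear axes from 0), by group, with colours for batches and symbols for replicate numbers. The batch 2 F3 libraries (orange) stand alone in fat-7 at 15.6 to 19.8 CPM, and water and ethanol libraries of a batch overlap for most genes.

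Class by class, 51 pairs of a member and a class could be fitted in 7 classes, within 53668 pairs of a gene and a class. The furrow collagen epidermis-, coelomocyte-, gonadal sheath- and spermatheca-like classes were not fitted. In some groups they had too few libraries with at least 20 nuclei. In the 7 fitted classes no member was called for either dose in either generation. Over all genes 0.00559% of pairs were called for 0.05% ethanol in F1, all 3 of them in pharyngeal gland-like nuclei (R12A1.3, T06E4.14 and abu-14), and 0% in the other 3 comparisons. The numbers of pairs at an unadjusted p under 0.05 were 1537, 2022, 1932 and 1754 of 53668 for 0.05% F1, 0.05% F3, 0.5% F1 and 0.5% F3, and 1 member pair was among them in each comparison.

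In intestine-like nuclei of batch 4, fat-5 was at 336, 402 and 512 CPM with 0.5% ethanol in F3 and at 565, 518 and 655 CPM in water, so every ethanol library was below every water library. The log2 difference was -0.57 (SE 0.218, adjusted p = 1 by edgeR). In the same class fat-7 had 3, 5 and 10 UMIs with 0.5% ethanol in F1 and 0, 0 and 2 UMIs in water. The fitted log2 difference of 1.96 (SE 0.884, adjusted p = 1 by edgeR) rests on these 20 UMIs and depends on how the fit treats zeros. In oocyte-like nuclei acs-2 had 0 and 1 UMIs with 0.05% ethanol and 3 and 16 in water of batch 2, and 4, 11 and 14 against 21, 25 and 27 in batch 4. In CPM the groups overlapped in both batches, with 0 and 12.5 against 7.76 and 73.5 CPM in batch 2 and 27.5, 31.1 and 71.8 against 64.7, 73.1 and 102 CPM in batch 4. Its log2 difference was -1.15 (SE 0.546, adjusted p = 1.00 by edgeR), and in intestine-like nuclei it was -0.93 (SE 0.505). In body wall muscle-like nuclei, where acs-2 is highest, the difference was -0.25 (SE 0.302). The uterus-like nuclei had the only other member pair at an unadjusted p under 0.05, fat-3 with 0.05% ethanol in F1 (-0.35, SE 0.169, adjusted p = 1.00 by edgeR).

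Batch 2 is the only batch with both F1 and F3 worms. There, fat-7 was at 19.8 and 15.8 CPM in the F3 water libraries and at 6.37 and 7.20 CPM in those of F1. The F3 libraries of 0.05% ethanol in the same batch had 15.6 and 16.6 CPM, and no other library of a water or ethanol line, in any batch, was above 10.6 CPM. The log2 difference between F3 and F1 water was 1.55 (SE 0.379), with an adjusted p of 0.0582 by edgeR, just outside the threshold. Over the settings tried the adjusted p ran from 0.00773, with DESeq2, to 0.317, and the difference stayed positive in all of them. When libraries were left out in turn, it fell below 0.05 without any 1 of 5, replicate 2 of 0.05% F1 in batch 2 (0.0453), replicates 1 and 2 of 0.5% F3 (0.0362 and 0.0436) and replicates 1 and 2 of 0.5% F1 (0.0482 and 0.0477). In intestine-like nuclei the F3 water libraries of batch 2 had 46.8 and 29.4 CPM of fat-7 and those of F1 had 21.9 and 13.3 CPM. The furrow collagen epidermis-like class, which also has fat-7, made up 13.2% to 17.9% of nuclei in these F3 water libraries. In those of F1 it made up 8.65% to 16.3%, so the shares overlapped. The part of the class shares in the fat-7 difference was not tested. The other desaturase genes were level or lower in F3, the lowest being fat-5 with 178 and 201 against 298 and 216 CPM (log2 difference -0.46, SE 0.183, adjusted p = 0.337 by edgeR). Of all genes 0.655% were called (95, of which 3 were higher in F3 and 92 lower), and 0 of the 8. Each water group had 2 libraries. The comparison is a difference of intercepts in the fit of all water and ethanol libraries, so ethanol libraries also shape it. Fitted on the water libraries of the comparison alone, 0 genes were called. With a replicate block, the adjusted p was 0.00831 for fat-7 and 0.0386 for fat-5, and 764 genes were called. The block has an intercept for each replicate number of a batch and generation, so in comparisons between generations or batches the spread between libraries of a group is left out of the error, and these calls are not a test over libraries.

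Water libraries of the same generation were compared between batches, to give the size of the shift that ethanol effects are read against. Each comparison is a difference of batch intercepts in the fit of all water and ethanol libraries. The fit shares its dose effects between batches, so ethanol libraries also shape the comparison. A fitted log2 difference therefore need not match the water levels beside it. Both comparisons use the batch 2 libraries. In F3, 6 of the 8 genes were called between batch 4 and batch 2, against a background of 20.0% of all genes. Batch 4 had 895, 853 and 847 CPM of fat-2 and batch 2 had 560 and 603 CPM, with no overlap (log2 difference 0.79, SE 0.175, adjusted p = 0.00296 by edgeR). The fat-4 levels were 303, 283 and 288 CPM in batch 4 and 215 and 209 CPM in batch 2 (log2 difference 0.54, adjusted p = 0.00215). The fat-1 levels were 451, 452 and 449 CPM in batch 4 and 349 and 316 CPM in batch 2 (0.53, adjusted p = 0.00933). Smaller differences in the same direction were called for fat-3 (0.43, adjusted p = 0.0144) and fat-5 (0.42, adjusted p = 0.0420). The difference of fat-7 had the opposite sign, with 9.18, 7.95 and 10.0 CPM in batch 4 against 19.8 and 15.8 CPM in batch 2 (-0.99, SE 0.279, adjusted p = 0.0153). The genes fat-6 (-0.13, SE 0.170) and acs-2 (0.62, SE 0.385) were not called.

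Fitted on the 5 libraries of the comparison alone, fat-2, fat-4 and fat-7 were called, while fat-1 (adjusted p = 0.051), fat-3 (0.186) and fat-5 (0.159) were not. With no filter on low counts fat-3 and fat-5 were not called, and without shared barcodes fat-5 was not. The replicate block called acs-2 in addition to the 6. Some of these calls rested on single libraries. The fat-5 call was lost, at adjusted p of 0.0538 to 0.120, without any 1 of 8 libraries: replicate 1 or 2 of water or of 0.05% ethanol in batch 2, replicate 2 or 3 of water in batch 4, or replicate 1 or 3 of 0.05% ethanol in batch 4. The fat-3 call was lost without replicate 2 of 0.05% F3 in batch 2 (adjusted p = 0.0637), and the fat-7 call without replicate 1 of water F3 in batch 2 (adjusted p = 0.0601). The gene acs-2 was called without replicate 2 of 0.05% F3 in batch 2. Intestine-like nuclei, the class with the highest desaturase levels, made up 5.90% to 8.83% of nuclei in the F3 water libraries of batch 2. In those of batch 4 the share was 9.76% to 10.5%. Within intestine-like nuclei fat-2 was also higher in the batch 4 water libraries, at 1870, 2073 and 1644 CPM against 1065 and 1231 CPM. The part of the class shares in the differences was not tested.

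In F1, 2 of the 8 genes were called between batch 5 and batch 2, against 48.7% of all genes. The fat-7 levels were 0.678, 1.74 and 1.87 CPM in batch 5 and 6.37 and 7.20 CPM in batch 2, with no overlap (log2 difference -1.92, SE 0.336, adjusted p = 9.46e-05 by edgeR). The fat-3 levels overlapped, at 269, 165 and 213 CPM in batch 5 and 205 and 176 CPM in batch 2 (log2 difference 0.35, SE 0.121, adjusted p = 0.0209). That call was lost without replicate 1 or 2 of 0.05% F1 in batch 2 (adjusted p = 0.0583 and 0.0776), replicate 2 of water in batch 2 (0.0638) or replicate 1 of water in batch 5 (0.0547), and fitted on the 5 libraries of the comparison alone it was lost at 0.616. With no filter on low counts it was lost as well. The differences of fat-1 (0.33, adjusted p = 0.0529), fat-2 (0.36, adjusted p = 0.0853) and fat-4 (0.26, adjusted p = 0.0603) were close to the threshold. All 3 were below it without replicate 1 of water in batch 2 (0.0102, 0.0193 and 0.0246) and without the shallow replicate 2 of water in batch 5 (0.0219, 0.0275 and 0.0463). The fat-1 difference was also below it without replicate 1 or 2 of 0.5% F1 (0.0487 and 0.0449), and that of fat-4 without replicate 1 of 0.05% F3 in batch 4 (0.0489). The replicate block, with its limit for comparisons between batches, called these 3 genes too, at 0.00148 (fat-1), 0.00754 (fat-2) and 0.0141 (fat-4). Furrow collagen epidermis-like nuclei made up 0.174% to 1.22% of the batch 5 libraries and 8.36% to 17.9% of those of batch 2, and fat-7 in intestine-like nuclei of the batch 5 water libraries was at 0, 0 and 2 UMIs.

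**Figure D5:**
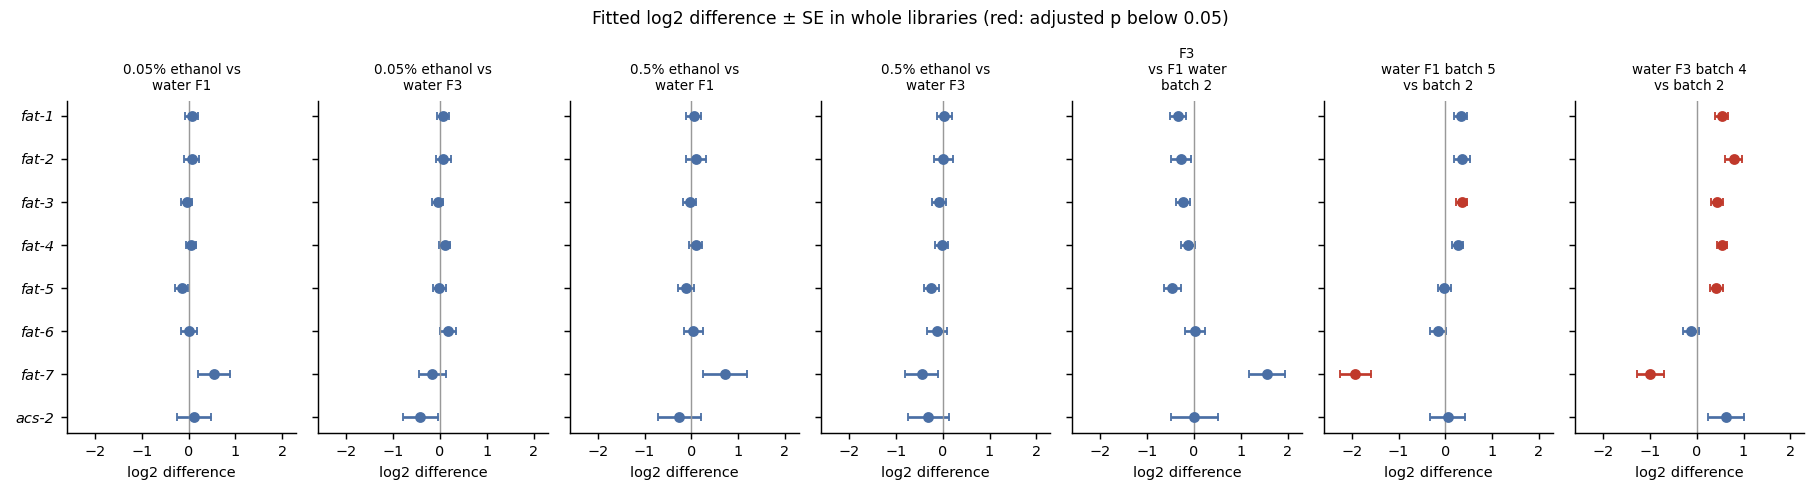
Fitted log2 differences of the 8 genes in whole libraries, with bars of 1 standard error on each side, in 7 comparisons; red marks an adjusted p below 0.05. The 4 comparisons of ethanol with water have no red point, and the batch 4 against batch 2 comparison of F3 water libraries has 6.

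Around the 8 genes, 6 lists of lipid genes held 110 genes, of which all but 6 could be fitted. None was called for ethanol in any of the 4 comparisons, with medians over the fitted genes of -0.04 and 0.01 for 0.05% and -0.02 and -0.09 for 0.5% ethanol (log2, F1 and F3) and all-gene medians of -0.01, 0.01, -0.02 and -0.0039 for the same comparisons in the order 0.05% F1, 0.05% F3, 0.5% F1 and 0.5% F3. By class, 580 pairs of list gene and class were fitted, and 0 were called in each comparison. In F3 against F1 water of batch 2, 0 list genes were called. Between batches 35.6% were called in F1 (14 higher and 23 lower in batch 5, background 48.7%) and 16.3% in F3 (13 higher and 4 lower in batch 4, background 20.0%), in each case a share no higher than that of all genes.

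Of the synthesis and elongation list, 15 genes were fitted, and the ATP citrate lyase gene acly-2 was higher outside batch 2, by 1.74 in batch 5 (F1) and 1.43 in batch 4 (F3) on the log2 scale (SE 0.123 and 0.121). The fatty acid synthase gene fasn-1 was lower in batch 4 (-1.28, SE 0.372, adjusted p = 0.0175 by edgeR). Among 35 fatty acid oxidation genes, 2 were higher and 13 lower in batch 5, and 5 higher and 3 lower in batch 4. The acyl-CoA dehydrogenase gene acdh-2 was the highest of them in both (2.04 and 2.15, SE 0.276 and 0.274). Of 17 other acyl-CoA synthetase genes, 3 were higher and 4 lower in batch 5, and 3 were higher in batch 4, among them acs-13 (0.49, adjusted p = 0.000926 by edgeR). Among 17 regulators of these genes, 6 were higher and 2 lower in batch 5, led by the nuclear receptor gene nhr-23 (1.06, SE 0.172), and 2 were higher in batch 4, atfs-1 (0.84, SE 0.131) and sbp-1, the worm SREBP gene (0.92, SE 0.230). Of 17 genes on the list named storage and lipolysis, 1 was higher and 2 lower in batch 5, where the list gene pmt-2 was at -1.13 (SE 0.194). In batch 4, 2 genes of this list were higher, dgat-2 (1.55, SE 0.262) and the lipid droplet gene plin-1 (0.64, SE 0.131). Of the 3 electron chain partners of the desaturases, 1 was called, hpo-19 in batch 5 (-0.30, adjusted p = 0.0494 by edgeR).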

How the data were processed

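Single-nucleus RNA of 31 libraries was measured as UMI counts. The authors deposited raw counts per gene and nucleus as sparse matrices, made with Cell Ranger on build ce10, per the submitters' processing notes, and the matrix headers give software version 3.0.2, per the file headers. The annotation, the use of strand and the library chemistry are not given in the sources used here. All count columns were used. The labels give day 2 of adulthood for all libraries, but 48 hours at 25 °C in one protocol and 62 in another. No coordinates are printed, since the reference used here is of another build.

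Doublets were scored by simulated pairs and the highest-scoring nuclei removed. Nuclei were clustered with leidenalg 0.10.2 (igraph 0.11.9) in Python 3.11.15 after correction for library, and named from marker lists. Counts were added up over each whole library and over each class with at least 20 nuclei in a library. They were tested with edgeR 4.0.16 (quasi-likelihood, TMM, filterByExpr) in R 4.3.3, with an intercept per batch and generation and an effect per dose and generation. A gene counted as called when its p, adjusted by Benjamini-Hochberg, was below 0.05. Class order was tested by sign-flip permutation with 100000 resamples, or exactly under 10 libraries. Precision is set by total counts of 1218248 to 25500166 per library. Alternatives were DESeq2 1.42.0, RLE factors, no low-count filter, a replicate block, fits of a comparison alone, leaving out libraries or genes, other clusterings and other minimums of nuclei. The fits and the permutation test were tested on simulated data. Members, lists and tests were chosen with earlier results of these data known, and named genes followed a written rule: all 8 members, the 3 genes most alike per member, and up to 3 called genes per list.

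Whether libraries with the same replicate number move together was checked over 6831 genes, by the correlation of their deviations from group means. In F1, r was 0.46 to 0.77 for 0.05% ethanol and water, 0.60 to 0.75 for 0.5% and water, and 0.64 to 0.67 between doses, and in F3 it was 0.21 to 0.66 for 0.5% and water. In these comparisons the numbers pair libraries by the data, though the labels do not say what they mark. The main fits did not use this pairing, and only the replicate block did.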

Additional observations from a re-analysis of the deposited data

Results flagged for a closer look

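In 85 groups of 4 to 10 libraries, 3 had a library far from the others by Dixon's criterion at the 95% level, which chance gives for about 1 in 20 groups. The fat-2 level of the whole library was 718 CPM in replicate 3 of untreated unsorted P0 (batch 3) and 1270 to 1380 CPM in the other 3 of the group. In intestine-like nuclei fat-2 was at 931 CPM in replicate 2 of water F1 in batch 2 and at 1990 to 2080 CPM in the other 4 libraries. In body wall muscle-like nuclei acs-2 was at 84.2 CPM in replicate 1 of water F3 in batch 2 and at 338 to 419 CPM in the other 4.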

How the results depend on the processing

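No comparison of ethanol with water, between doses or between generations of effects called a member in whole libraries under any setting tried. In F3 against F1 water of batch 2, where 0 members were called, DESeq2, no low-count filter, leaving out the 3 shallowest libraries and leaving out shared barcodes each called 1 (fat-7), the replicate block called 2 (fat-7 and fat-5), and leaving out single libraries called 0 to 1. Between water F1 of batches 5 and 2 the 2 calls became 1 with no filter and 1 with the libraries of the comparison alone, 5 with the replicate block, 5 without the shallowest libraries, and 1 to 5 without single libraries. Between water F3 of batches 4 and 2 the 6 calls became 3 with the libraries of the comparison alone and 7 with the replicate block. Over all genes, the replicate block called 764, 8602 and 5092 genes in these comparisons (95, 7064 and 2901 without it), where its error leaves out the spread between libraries of a group, the comparison alone 0, 620 and 1750, and for F3 against F1 water DESeq2 called 258 and no filter 167. With 0.5% ethanol in F3, where 0 genes were called, the comparison alone called 11 and the replicate block 3, and the block called 1 between doses in F3. Leaving out single libraries gave 2 to 192, 5507 to 7524 and 1793 to 3118 genes. In class sums 1 member was called with no filter, acs-2 in intestine-like nuclei with 0.05% ethanol in F3 (log2 difference -0.94, adjusted p = 0.0088 by edgeR). Over all pairs of gene and class, no filter called 130, 166, 154 and 134 and the replicate block 5, 10, 4 and 12, against 3, 0, 0 and 0 (0.05% F1, 0.05% F3, 0.5% F1, 0.5% F3), and leaving out single libraries up to 12, 1, 11 and 3. The acs-2 difference between doses in F1 (-0.37) turned to 0.048 without replicate 1 of 0.05% F1 in batch 5, with -0.70 as the lowest value without 1 library. Other differences short of the threshold moved, without 1 library, over -0.38 to -0.15 (fat-5, 0.5% ethanol in F3), -0.36 to -0.19 (fat-6 between doses in F3), and -0.90 to -0.43 and -1.66 to -0.82 (fat-7 between generations, 0.05% and 0.5%). The 19 passing pairs of neighbouring classes became 11 with at least 50 nuclei, 14 without shared barcodes and 0 within each of batches 2, 3, 4 and 5, where the smallest p that few libraries allow is 0.00391 to 0.25 before adjustment. The intestine-like class led for fat-1 to fat-6 in each of those settings. Causes of these changes were not tested. For 0.05% ethanol and water in F3, r of same-numbered libraries was -0.069 in batch 2 and 0.16 to 0.34 in batch 4, and between doses in F3 it was 0.038 to 0.43. The batch 2 value and the lowest value between doses fell short of the r of 0.1 asked of every pair, and the 3 batch 4 pairs of 0.05% ethanol and water were above it. The block changed no other call of a member. Depth limits fat-7, with 1886 UMIs in all, the fewest of the 8 genes.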
